A study of Mus musculus with 6 samples.

Results

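A set of 6 genes of the neural crest and of melanocyte dedifferentiation, Nes, Cd44, Jun, Foxd3, Snai1 and Prrx1, was followed in Melan-a cells given an siRNA against Dicer. They were taken by gene symbol from the array table, 6 of 7476 genes with a value, and each was read by 1 transcript cluster, so no choice between clusters was needed. Melan-a is an immortalised line of pigmented melanocytes from C57BL/6 mice, here female by label and grown with TPA, a phorbol ester, at 200 nM. They were transfected with an siRNA against Dicer (siDicer, 3 arrays) or with a control siRNA (siScr, 3 arrays), and both groups had one array at each of passages 47, 54 and 56, which are replicates 1, 2 and 3. All samples thus come from a single line, and both groups were transfected in the same way. Titles and design text put the RNA at 48 h after transfection, whereas the treatment protocol describes new medium at 6 h and lysis 24 h later.

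Dicer cuts microRNA precursors into mature microRNAs, which hold down the messages they pair with. Melanocytes descend from the neural crest, an embryonic population that leaves the neural tube, migrates and gives rise to pigment cells, peripheral neurons and glia. Foxd3 and Snai1 are transcription factors of the early crest, Foxd3 being known to hold back the pigment cell fate and Snai1 to repress E-cadherin as cells detach. Prrx1 is a homeobox factor of mesenchymal cells. Jun is a subunit of the AP-1 transcription factor and is linked to loss of melanocytic identity in melanoma. Nes encodes nestin, an intermediate filament protein of neural progenitors, and Cd44 encodes the surface receptor for hyaluronan, and both are common in immature or mesenchymal cells.

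The values are log2 signals, on which a difference of 1 stands for a factor of 2 in signal. Array medians over 16383 transcript clusters lay between 4.63 and 4.68, and clusters on chromosomes 1 to 4 were analysed here. Dicer1, the targeted transcript, was not analysed here, so the knockdown itself was not checked. Of the 5 melanocyte markers with a value, all 5 lay above the threshold for dim genes (log2 4.16, the 30th percentile of gene means), and the melanosomal enzyme Tyrp1 averaged 12.81 in siDicer and 12.86 in siScr cells. Of the leukocyte markers 3 of 8, among them Ptprc, and of the keratinocyte markers 5 of 8, among them Ivl, were below it. So were 2 of 7 fibroblast, 1 of 6 muscle and 0 of 4 Schwann cell and glial markers. Most markers of several other cell types thus also lay above the threshold, which does not tell cell types apart. Signals of different genes come from different probes, so levels are compared within a gene only.

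Sequence upstream of the transcript start is shown for 3 of the genes: Nes, the gene among the 6 that passed a test, and Jun and Snai1, whose proteins are known from human cells to act on their own promoters. The 250 bases before each start were taken from RefSeq (GRCm38.p6), and all 6 genes had an entry. Capitals mark matches on either strand to GGGCGG (GC box), CCAAT, TGACNTCA (the AP-1 and CREB type site), TGANTCA (AP-1), CACCTG (the E-box bound by Snail factors, one form of CANNTG) and TATAAA. The Nes stretch is chr3:87970843-87971092 (plus strand), that of Jun chr4:95052223-95052472 (minus strand) and that of Snai1 chr2:167537945-167538194 (plus strand).
Nes: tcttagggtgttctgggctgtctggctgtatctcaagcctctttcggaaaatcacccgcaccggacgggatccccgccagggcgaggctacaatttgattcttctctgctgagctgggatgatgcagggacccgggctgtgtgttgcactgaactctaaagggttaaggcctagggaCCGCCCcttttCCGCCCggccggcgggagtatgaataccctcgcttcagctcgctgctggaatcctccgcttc
Jun: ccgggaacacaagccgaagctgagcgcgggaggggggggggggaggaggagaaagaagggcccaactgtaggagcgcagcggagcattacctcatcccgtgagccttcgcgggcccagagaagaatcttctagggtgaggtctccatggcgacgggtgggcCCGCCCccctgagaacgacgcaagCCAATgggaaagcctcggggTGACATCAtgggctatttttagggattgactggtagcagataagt
Snai1: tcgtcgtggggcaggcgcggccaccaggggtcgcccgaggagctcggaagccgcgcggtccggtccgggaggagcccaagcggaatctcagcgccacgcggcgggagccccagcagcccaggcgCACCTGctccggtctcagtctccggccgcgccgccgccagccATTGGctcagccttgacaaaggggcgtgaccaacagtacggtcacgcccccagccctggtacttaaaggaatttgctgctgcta
Nes had a pair of GC boxes, starting at -73 and -62 from the transcript start. Jun had one TGACNTCA match at -45, with CCAAT at -65 and a GC box at -89. Snai1 had one CACCTG match at -126 and CCAAT at -84. Of the 6 upstream stretches 2 held TGACNTCA (Jun and Foxd3), against 7.49% of 32851 RefSeq stretches of the same length, 1 held CACCTG (17.2%), 2 held a GC box (32.7%), 2 held CCAAT (33.8%), and 0 held TGANTCA (6.75%) or TATAAA (12.4%). The GC content was 58.8% in Nes, 56.4% in Cd44, 61.2% in Jun, 65.6% in Foxd3, 70.0% in Snai1 and 47.6% in Prrx1, against a median of 52.4% over all stretches.

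Nes, the nestin gene, had the largest difference of the 6. It was at log2 7.63, 7.61 and 8.01 in siDicer cells, against 7.31, 7.28 and 7.55 in siScr cells, at passages 47, 54 and 56. Every siDicer array lay above every siScr array, although the lowest siDicer value, at passage 54, exceeded the highest siScr value, at passage 56, by only 0.065. The signal was 1.29-fold higher in siDicer (log2 0.37, standard error 0.12, 95% interval 0.085 to 0.66), and this did not pass in limma over all 5233 tested genes (adjusted p = 0.42). In whole-culture RNA a change in the share of cells that make a transcript cannot be told apart from a change in the amount per cell.

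Much of the spread in Nes lay between passages. Passage 56 was higher than passage 54 by 0.40 in siDicer and by 0.27 in siScr cells, which is about the size of the difference between the transfections. The differences within passages were 0.32 at passage 47, 0.33 at passage 54 and 0.46 at passage 56. Once passage entered the fit as a block, the standard error was 0.064 and Nes rose (95% interval 0.22 to 0.52, adjusted p = 0.035 in limma), ranking 74 by p-value among the 99 genes that passed. That call was lost with any 1 passage left out, with a limma adjusted p of 0.141 when passage 47 was dropped, 0.107 for passage 54 and 0.0562 for passage 56, and also when dim genes were kept in (0.0585). Without siDicer replicate 3, the passage 56 array, and with no block, the difference was 0.24.

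**Figure D1:**
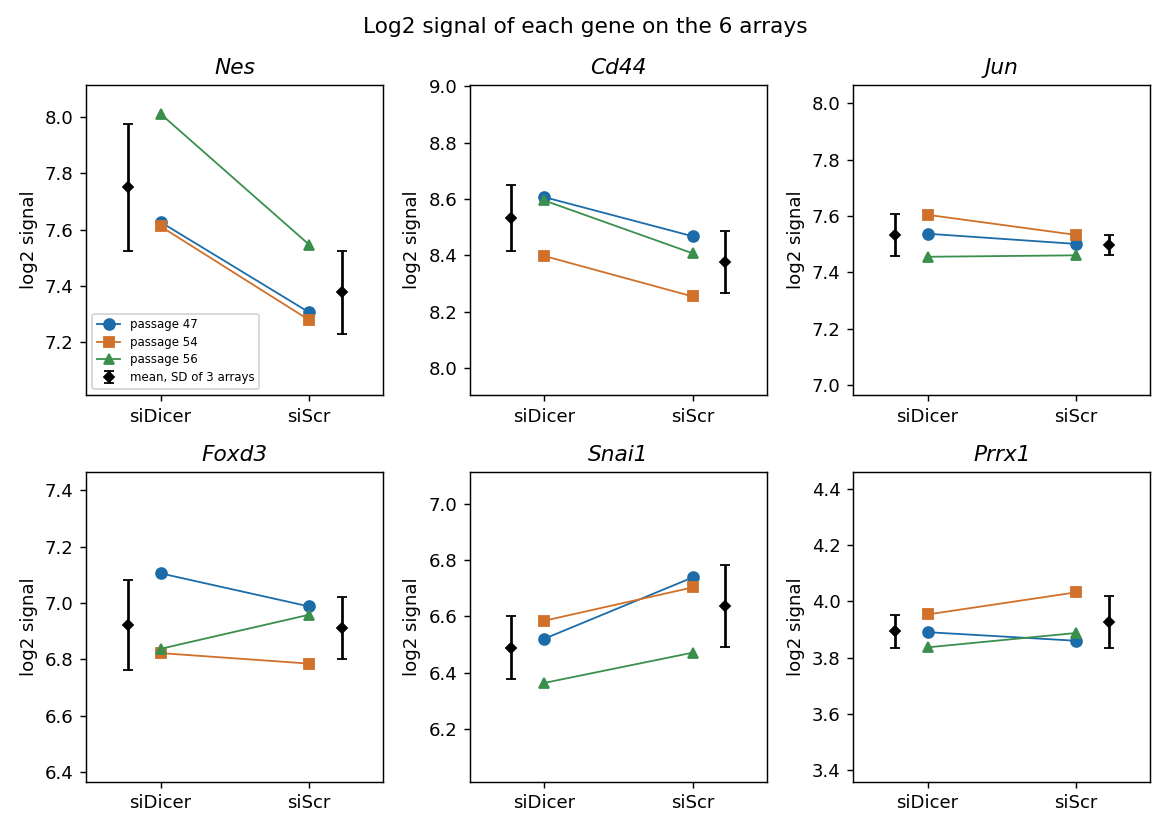
Log2 signal (y axis, 1.1 log2 units high in every panel) of the 6 genes in siDicer and siScr cells (x axis). Coloured symbols are single arrays joined within a passage, and black diamonds with bars are the mean and SD of 3 arrays. The Nes lines run from higher siDicer to lower siScr values at all 3 passages, with passage 56 above the others in both groups, while the Jun and Foxd3 lines go in both directions.

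Cd44 was the other gene higher in siDicer at each passage, by a smaller amount. Its log2 signal was 8.61, 8.40 and 8.59 in siDicer cells, against 8.47, 8.25 and 8.41 in siScr cells. The groups overlapped, because passage 54 was lowest in both of them. The differences were nearly equal across passages, at 0.14, 0.14 and 0.19, and averaged 0.16 (95% interval -0.047 to 0.36, limma, adjusted p = 0.693). The block narrowed the interval to 0.014 to 0.30, and the gene did not pass over all genes (limma, unadjusted p = 0.0356, adjusted p = 0.304). The difference was 0.096 without siScr replicate 2. The cluster was read as a whole, so the splice forms of Cd44 were not separated.

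Snai1 had the opposite sign. It was at 6.52, 6.58 and 6.36 in siDicer cells, against 6.74, 6.70 and 6.47 in siScr cells. The siDicer value was the lower one at each passage, by 0.22, 0.12 and 0.11, while the groups overlapped through the low passage 56 array of siScr. The mean difference was -0.15 (95% interval -0.36 to 0.068, limma, adjusted p = 0.735). In the blocked fit the interval was -0.29 to -0.0082, and Snai1 did not pass over all genes (limma, unadjusted p = 0.0406, adjusted p = 0.324). Dropping siDicer replicate 3 gave -0.085, dropping siScr replicate 1 gave -0.098 and dropping siScr replicate 3 gave -0.23. At passage 56, where Nes was highest in both groups, Snai1 was lowest in both.

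Foxd3 and Jun showed no steady direction. Foxd3 was at 7.11, 6.82 and 6.84 in siDicer cells, against 6.99, 6.79 and 6.96 in siScr cells. It was higher in siDicer at passages 47 and 54 (0.12 and 0.037) and lower at passage 56 (-0.12), with a mean difference of 0.011 (95% interval -0.21 to 0.24, limma, adjusted p = 0.989). Its highest value in each group was at passage 47 and its lowest at passage 54. Jun was at 7.54, 7.60 and 7.46 in siDicer cells, against 7.50, 7.53 and 7.46 in siScr cells, so that all 6 arrays lay within 0.15 of each other. Its passage differences were 0.036, 0.071 and -0.0052 and its mean difference 0.034 (95% interval -0.12 to 0.19, limma, adjusted p = 0.945). The blocked intervals were -0.15 to 0.17 for Foxd3 and -0.11 to 0.17 for Jun, so a change of Jun larger than about 1.13-fold upward lay outside its interval.

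Prrx1 was under the threshold for dim genes and was not part of the test. It read 3.89, 3.95 and 3.84 in siDicer cells, against 3.86, 4.03 and 3.89 in siScr cells. Its mean difference was -0.033 and its passage differences were 0.030, -0.079 and -0.051. The other 5 genes passed the filter, which uses the mean over all 6 arrays.

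**Figure D2:**
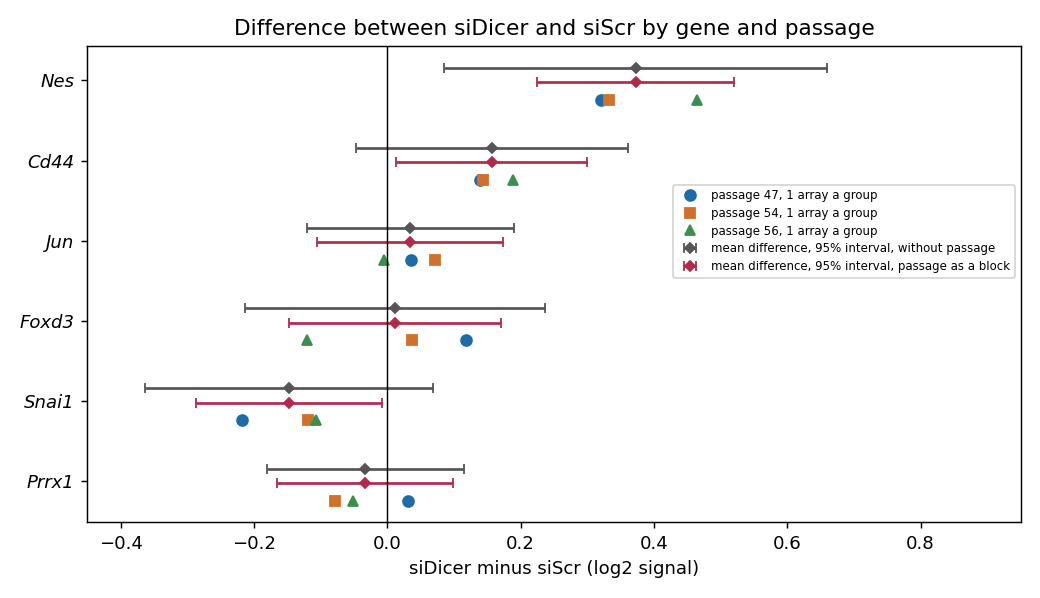
Difference between siDicer and siScr in log2 signal (x axis) for the 6 genes (y axis). Diamonds with bars are the mean difference and its 95% interval, without passage in grey and with passage as a block in red, and coloured symbols are single passages with 1 array a group. Prrx1 was not tested, and its bars come from fits with dim genes kept in. The interval of Nes lies above 0 in both fits, and those of Cd44 and Snai1 leave out 0 with passage as a block.

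Counted together, 4 of the 5 tested genes were higher in siDicer and 1 was lower, with a median difference of 0.034, against -0.0087 for all tested genes, of which 45.7% were higher. Without the block 0 of the 5 passed in limma and 1 (Nes) had an unadjusted p under 0.05, against 0.0191% and 8.62% of all tested genes. Under the block 1 of 5 passed and 3 (Nes, Cd44 and Snai1) had an unadjusted p under 0.05, against 1.89% and 13.9%. The groups did not overlap in 1 of 5, against 14.7%, and 3 of 5 had one direction at all 3 passages, against 36.4%. The absolute difference of Nes was larger than that of 97.9% of tested genes, that of Cd44 larger than 84.9%, Snai1 83.1%, Jun 29.2% and Foxd3 9.99%.

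**Figure D3:**
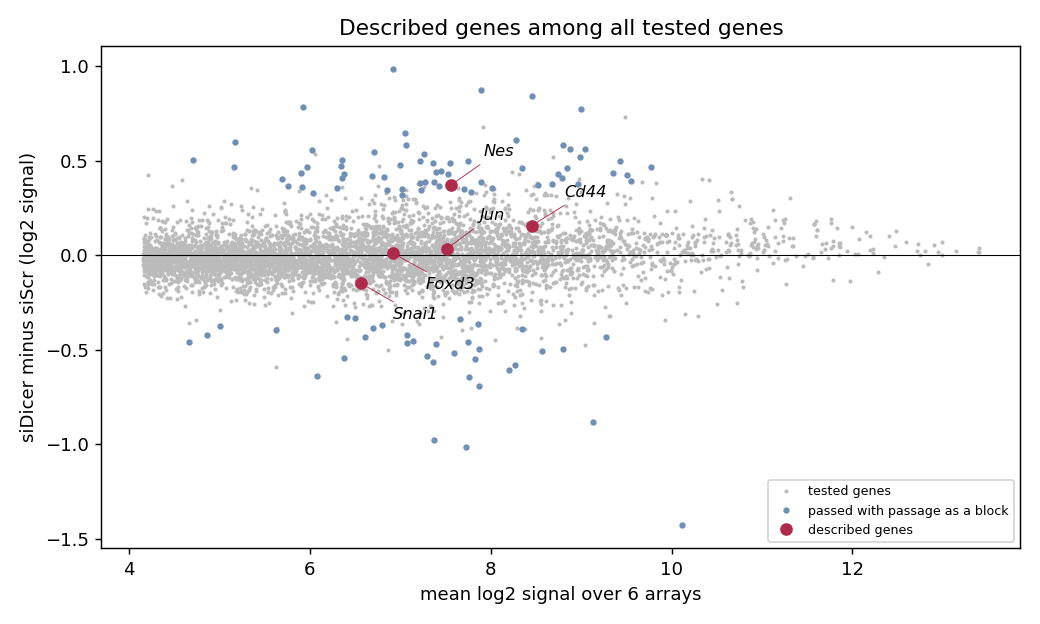
Difference between siDicer and siScr in log2 signal (y axis) against mean log2 signal over 6 arrays (x axis) for 5233 tested genes in grey, with the 99 that passed with passage as a block in blue and the 5 tested genes described here in red. Nes, at 0.37, lies among the blue points, and the other 4 lie within the grey cloud between -0.15 and 0.16.

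The genes whose values ran most like each member over the 6 arrays were listed as a description. With 6 arrays and 3487 protein-coding genes high coefficients are common, and 24 to 115 genes reached a Pearson r of 0.9 with a given member. For Nes these were Wdr76, Rpusd2 and the adenylate kinase Ak5 (r from 0.982 to 0.987 over 6 arrays). For Cd44 they were the Wnt pathway factor Lef1, the histone methyltransferase Setdb1 and Naif1 (0.973 to 0.976). For Snai1 they were Iqcj, the ciliary gene Bbs7 and Zkscan16 (0.979 to 0.987), for Jun the cadherin Fat4, the protease Adamts4 and Ngef (0.967 to 0.980), and for Foxd3 Nkain1, Fam219a and Coq8a (0.985 to 0.991). The arrays share passages, so these coefficients hold passage as well as transfection. The next tested protein-coding gene on either side of each of the 6 had differences between -0.19 and 0.072. In limma 0 of these 12 neighbours passed with or without the block, against 1.89% and 0.0191% of all tested genes. An unadjusted p under 0.05 was reached by 2 with the block and 1 without it, against 13.9% and 8.62%. These counts are near the shares over all genes. The neighbours of Nes, Crabp2 and the brain proteoglycan Bcan, were at -0.039 and -0.069.

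Of 15 tested neural crest factors, Foxd3 and Snai1 included, 2 were higher and 13 lower in siDicer, with a median of -0.087, where 54.3% of all tested genes were lower. None passed without the block (0 of 15 in limma, and 3 at an unadjusted p under 0.05, against 8.62% of all tested genes), and 1 passed with it, against 1.89%. The lists were chosen with earlier results of these data known, so this count is no independent evidence. Rxrg, a retinoid X receptor, was the one that fell under the block (-0.54, adjusted p = 0.0335 in limma), and its passage differences were -0.49, -0.34 and -0.81. That call was lost without passage 47 (adjusted p = 0.141 in limma) and with dim genes kept in (0.0592). Id3 and Id1, which block the DNA binding of bHLH factors, were at -0.30 and -0.26, with groups that did not overlap, and neither passed in the blocked limma fit (adjusted p = 0.1002 and 0.206). The LIM factor Lmo4 was at -0.14, and at -0.067 without siScr replicate 1.

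Genes of epithelial to mesenchymal transition were higher in 4 and lower in 13 of 17 tested, with a median of -0.041, where 54.3% of all tested genes were lower. The list also holds the epithelial factors Ovol2 (-0.071) and Grhl3 (-0.047), both among the 13. Its count thus gives no direction for mesenchymal genes alone. Without the block 0 passed in limma (1 at an unadjusted p under 0.05, against 8.62% of all tested genes), and with it 1 passed, against 1.89%. The TGF-beta receptor Tgfbr1 fell under the block (-0.46, adjusted p = 0.0319 in limma), a call lost when passage 47 or passage 54 was dropped (limma adjusted p of 0.1505 and 0.0754) and when dim genes were kept in (0.0536). Fibronectin, Fn1, was at 0.26, the calcium-binding protein S100a4 at 0.25 and the collagen chain Col5a1 at 0.13, and none of them passed with the block (limma, adjusted p from 0.132 to 0.448). Leaving out 1 array brought Fn1 to 0.093 (siScr replicate 3), and S100a4 and Col5a1 to 0.084 and 0.0084 (siDicer replicate 2), while S100a4 was at 0.39 without siDicer replicate 1 and Col5a1 at 0.25 without siDicer replicate 3.

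Partners of Jun, nestin and Cd44 did not pass in either limma fit, and 0 of the partners had an unadjusted p under 0.05 in either. Of all tested genes 0.0191% passed without the block and 1.89% with it, so few calls would arise among so few genes. An unadjusted p under 0.05 was reached by 8.62% and 13.9% of all tested genes, and 45.7% were higher in siDicer. Of 5 tested AP-1 genes 1 (Jun) was higher and 4 lower, with Atf2 at -0.12, Atf3 at -0.11, Batf3 at -0.053 and Fbxw7, a ubiquitin ligase subunit that marks Jun for decay, at -0.0029. With 1 array left out Atf3 ran from -0.24 (siScr replicate 3) to -0.015 (siDicer replicate 3), Atf2 was at -0.077 without siScr replicate 1, Batf3 was at -0.028 without siDicer replicate 3, and Fbxw7 turned to between 0.00062 and 0.0011 without siDicer replicate 1, siDicer replicate 2 or siScr replicate 3. Of 7 intermediate filament genes and linkers 4 were higher and 3 lower (median 0.0040), and Nes was the one that rose with the block. Vimentin, Vim, with which nestin forms filaments, averaged 11.74 in siDicer and 11.68 in siScr cells, a difference of 0.064, syncoilin (Sync) was at -0.18, lamin A (Lmna) at 0.11 and desmin (Des) at -0.11. Single arrays moved these values too: Vim lay between 0.024 (without siScr replicate 3) and 0.12 (without siScr replicate 2), Des between -0.20 (without siDicer replicate 2) and -0.053 (without siScr replicate 3), Sync was at -0.10 without siDicer replicate 3 and Lmna at 0.063 without siDicer replicate 1. Of 6 tested genes of hyaluronan and its binding proteins, Cd44 included, 2 were higher and 4 lower, and 0 passed in either limma fit. The hyaluronan-binding protein Tnfaip6 was at 0.097 with groups that did not overlap, and Hapln2, Bcan and Itih2 lay between -0.069 and -0.019. Bcan turned to 0.079 without siScr replicate 1 and to 0.048 without siDicer replicate 3, Itih2 turned to 0.055 without siScr replicate 2 and to 0.022 without siDicer replicate 3, and Hapln2 was at -0.0011 without siScr replicate 2.

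Among genes linked to dedifferentiated melanoma 5 passed under the block. Of 15 tested, with Nes, Cd44 and Jun among them, 9 were higher and 6 lower, with a median of 0.073, where 45.7% of all tested genes were higher. Without the block 0 of these passed in limma, and 5 had an unadjusted p under 0.05, against 8.62% of all tested genes. In the blocked fit 4 rose and 1 fell, against 1.22% and 0.669% of all tested genes. Those that rose were Nes, tissue factor (F3, 0.65, 0.93 and 1.04 at the 3 passages), thrombospondin 1 (Thbs1, 0.67, 0.76 and 0.89) and the receptor Ror1 (0.41, 0.61 and 0.65), and Rxrg fell. For F3, Thbs1 and Ror1 the call held with each passage left out (limma with the block, adjusted p from 0.0038 to 0.0404), whereas that of Nes did not. Thbs1 was at 0.51 without siDicer replicate 2 and with no block, against 0.77 over all arrays. Earlier results for F3, Thbs1, Ror1 and Rxrg were known when the list was drawn up, so its count is no independent evidence.

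Genes of the differentiated melanocyte were lower in 9 and higher in 3 of 12 tested, with a median of -0.11, where 54.3% of all tested genes were lower. Without the block 0 passed in limma (2 at an unadjusted p under 0.05, against 8.62% of all tested genes), and with it 2 passed, against 1.89%. Kcnj13, a potassium channel, and Pmp2, a lipid-binding myelin protein, fell under the block by 1.43 and 1.01 (adjusted p = 0.0057 each in limma), and both had been placed in the list with their results known. Slc7a11, the cystine transporter, was at -0.59 and Hps3, a factor of melanosome biogenesis, at -0.25, and neither passed with the block (limma, adjusted p = 0.282 and 0.137). The passage differences of Slc7a11 were -1.39, -0.32 and -0.067, and it was at -0.23 without siScr replicate 1. Hps3 was at -0.12 without siScr replicate 1, -0.13 without siDicer replicate 2 and -0.41 when siScr replicate 2 was dropped.

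**Figure D4:**
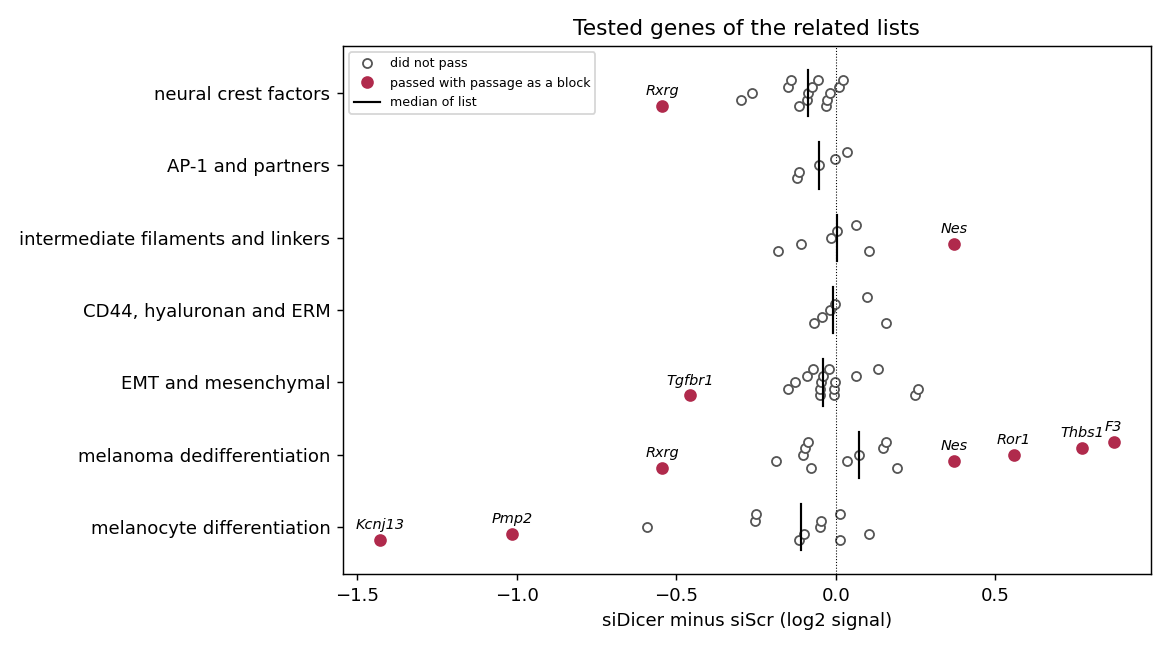
Difference between siDicer and siScr in log2 signal (x axis) for the tested genes of 7 related lists (y axis). Open circles did not pass, filled circles passed with passage as a block, and black bars are list medians. Filled circles lie to the right of 0 for Nes, F3, Thbs1 and Ror1 and to the left for Rxrg, Tgfbr1, Kcnj13 and Pmp2.

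Markers of other cell types were set beside these values. The summed linear signal of 7 fibroblast markers ran from 1132 to 1432 in siDicer and from 849 to 1138 in siScr cells. Without Prelp, a matrix proteoglycan at log2 10.02 in siDicer and 9.64 in siScr, the other 6 summed to 187 to 234 in siDicer and 200 to 236 in siScr cells, with single differences from -0.22 to -0.011. The 4 Schwann cell and glial markers summed to 489 to 622 in siDicer and 557 to 777 in siScr cells, and Pmp2 was the one that passed with the block. These markers did not move together. Pmp2 was at log2 7.22 in siDicer and 8.23 in siScr cells, whereas Cdh19 was higher in siDicer, at 8.43 against 8.25. Mal and Sox2 differed by -0.058 and -0.10. The leukocyte sum was 145 to 157 in siDicer and 146 to 162 in siScr cells, the keratinocyte sum 268 to 286 in siDicer and 259 to 301 in siScr cells, and the muscle sum 576 to 692 in siDicer and 562 to 629 in siScr cells. Their part in the difference of Nes was not tested.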

How the data were processed

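RNA from 6 Melan-a cultures was hybridised to Affymetrix Clariom D mouse arrays (100 ng, RNA integrity 10.0 in each sample, per the labels). The deposited values are log2 signals per transcript cluster, with array medians from 4.63 to 4.68, and were used as deposited unless stated. The submitters' processing notes name Affymetrix Expression Console, while summarisation, centring and genome build were not given in the sources used here. The range of the values, 1.70 to 13.70, is that of a log2 scale.

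Of 16383 clusters, 7530 had 1 gene symbol, 455 several and 8398 none, and 312 symbols were updated through RefSeq. The cluster with the highest mean was kept per gene (7476 genes), and genes under the 30th percentile of gene means were left out, leaving 5233. The comparison used limma 3.58.1 under R 4.3.3 (eBayes with trend, two-sided, Benjamini-Hochberg over all tested genes, threshold 0.05). That procedure was tested on simulated data whose changes were all larger than that of Nes. It therefore does not show how well changes of the size seen in Nes or smaller are found. With 10 splits of 3 against 3 arrays, an exact permutation p could not fall under 0.1, so none was run. The labels give both arrays of a replicate number 1 passage, so the numbers pair the samples. Deviations from group means correlated at 0.42, 0.63 and 0.076 within pairs 1, 2 and 3. Between arrays of different numbers they ran from -0.54 (siDicer 1 and siScr 2) to 0.29 (siDicer 1 and siScr 3). The latter value is above that of pair 3. The fit with passage as a block is given beside the one without.

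Related genes were named as the 4 smallest p-values per list plus any that passed, and nearest patterns as the 3 highest Pearson r. Neighbouring genes were added after the values were seen. Members, lists and rules were chosen with earlier results of these data known. Alternatives were quantile normalisation, median centring, other dim filters, array weights, no variance trend and leaving out arrays or passages. Few arrays limit the precision.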

Additional observations from a re-analysis of the deposited data

How the results depend on the processing

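Over the 17 alternatives run, Nes and Cd44 kept a positive and Snai1 a negative difference. With 1 array left out the log2 difference ran from 0.24 to 0.46 for Nes, 0.096 to 0.22 for Cd44, -0.23 to -0.085 for Snai1, -0.081 to 0.061 for Foxd3, -0.0019 to 0.073 for Jun and -0.066 to 0.020 for the untested Prrx1. Limma adjusted p of Nes ran from 0.035 to 0.776 over all alternatives. With passage as a block (replicate block) Nes was at 0.37 and passed, 1 of the 5 tested genes passed, and 99 genes passed in all, against 1 gene and none of the 5 without it. It changed no other call among the 6 genes. Foxd3 turned to -0.051 with array weights, -0.081 without siDicer replicate 1, -0.052 without siScr replicate 2, -0.042 without passage 47 and -0.0018 without passage 54 (both with the block), and Jun to -0.0019 without siDicer replicate 2. With array weights Cd44 was at 0.099 and Snai1 at -0.085. The cause was not tested.

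The count of all genes that passed was 14 with array weights, 0 to 2 with 1 array left out, and with the block 10 without passage 47, 33 without passage 54, 156 without passage 56 and 46 with dim genes kept in, a setting chosen after seeing the data. In the lists, 0 genes passed in any list with 1 array left out and no block. With the block the counts were 1 for neural crest factors (1 without passage 54 and 1 without passage 56) and 1 for intermediate filaments. For epithelial to mesenchymal transition the count was 1 (1 without passage 56). It was 5 for melanoma dedifferentiation (3, 4 and 4 without passages 47, 54 and 56, and 3 with dim genes kept in). For melanocyte differentiation it was 2 (2 in each of those 4 settings). Array weights without the block gave 1 in each of the last 2 lists. No member had a second cluster, so that alternative could not be run.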
